A study of Homo sapiens with 2 samples.

Results

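Of 7 signalling genes followed in compressed pancreatic cancer cells, 5 were at least 1.5-fold higher on the compressed array and 2, CXCL2 and CXCL3, were not, beside 3.76% of all named genes that were. The 7 are the chemokine genes CXCL8, CXCL2, CXCL3, CXCL5 and CCL20, the cytokine gene LIF and the transcription factor gene NFKB2. Of the 5 that were higher, CXCL5, LIF and NFKB2 were above a background mark, described below, on both arrays. CXCL8 and CCL20 were under it on the uncompressed array, and no fold is given for them. With values raised to the higher mark of the 2 arrays, 4 members without CXCL8 stayed past 1.5-fold, beside 1.08% of all named genes. The 7 were chosen by gene symbol with earlier results of these arrays known, so their count of 5 is a description alone. Each was represented by 1 named probe set, and together they are 7 of the 14884 named genes. AsPC-1, a long-established line from a human adenocarcinoma of the pancreas, was grown in 3D under a collagen gel overlay, in medium with fetal bovine serum. The culture of the uncompressed group stood for 24 h without added load, and that of the compressed group stood for 24 h under a compressive stress of 2.9 mmHg. Total RNA of each was labelled with biotin and hybridised to a GeneChip Human Gene 2.0 ST array, so each group is 1 array. With no replicate, none of the differences could be tested, and the precision is limited by the number of arrays. "Higher" and "lower" refer to these 2 arrays, and a difference is the compressed minus the uncompressed log2 signal.

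Chemokines are small secreted proteins that draw leukocytes along a gradient by acting on G protein-coupled receptors. CXCL8, CXCL2, CXCL3 and CXCL5 carry a glutamate-leucine-arginine (ELR) motif ahead of their paired cysteines and act on neutrophils through CXCR2, and CXCL8 also through CXCR1. CCL20 acts through CCR6 on immature dendritic cells and lymphocytes. LIF, a cytokine of the IL-6 family, signals through LIFR and the shared subunit IL6ST to JAK kinases and STAT3. NFKB2 encodes the precursor whose processed form pairs with RELB in the non-canonical NF-kB pathway. NF-kB dimers are held in the cytoplasm by inhibitor proteins until upstream kinases release them, and several of these chemokine genes are textbook NF-kB targets.

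A common short element was found upstream of the chemokine members and of some starts of NFKB2. Its letters are shown because the genes that carry it differed in their values. The element was searched on both strands as GGNNTTTCC, a form of the NF-kB motif, beside the AP-1 motif TGANTCA, in the 250 bases upstream of each gene start of RefSeq's promoter table (GRCh38.p14). GGNNTTTCC was found in 5.48% of the 35116 promoters of that table and TGANTCA in 6.57%. The table held promoters for 6 of the 7 members, and LIF had no entry. GGNNTTTCC was found upstream of all 5 chemokine members and of 2 of the 3 gene starts of NFKB2. TGANTCA was found in 1 of the members, CXCL8, from base 137 to base 131 upstream of the start. The 150 bases just upstream of each chemokine start follow, and CXCL6, the neighbour of CXCL8, is added because its promoter is close to that of CXCL5. The letters run 5′ to 3′ on the gene's strand, and capitals mark both motifs.
CXCL8 (chr4:73740419-73740568, plus strand): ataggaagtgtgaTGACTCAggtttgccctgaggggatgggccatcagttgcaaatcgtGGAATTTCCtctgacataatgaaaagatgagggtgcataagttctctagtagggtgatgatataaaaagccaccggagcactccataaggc
CXCL5 (chr4:73998678-73998827, minus strand): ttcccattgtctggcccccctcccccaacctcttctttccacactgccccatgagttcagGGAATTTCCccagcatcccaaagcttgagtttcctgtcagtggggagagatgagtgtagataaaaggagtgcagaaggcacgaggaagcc
CXCL6 (chr4:73836528-73836677, plus strand): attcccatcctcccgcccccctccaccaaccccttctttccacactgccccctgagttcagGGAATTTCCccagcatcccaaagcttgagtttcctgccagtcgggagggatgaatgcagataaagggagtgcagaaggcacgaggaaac
CXCL3 (chr4:74038690-74038839, minus strand): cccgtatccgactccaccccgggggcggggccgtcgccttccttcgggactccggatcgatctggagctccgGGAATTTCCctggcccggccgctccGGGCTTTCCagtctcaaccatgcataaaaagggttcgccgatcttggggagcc
CXCL2 (chr4:74099196-74099345, minus strand): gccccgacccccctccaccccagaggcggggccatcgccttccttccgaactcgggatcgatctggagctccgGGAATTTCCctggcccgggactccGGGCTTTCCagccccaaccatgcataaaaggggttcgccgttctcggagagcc
CCL20 (chr2:227813692-227813841, plus strand): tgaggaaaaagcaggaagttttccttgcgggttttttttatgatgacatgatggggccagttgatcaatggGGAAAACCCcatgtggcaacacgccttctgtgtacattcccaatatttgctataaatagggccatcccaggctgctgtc

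In all 5 CXC promoters the same letters GGAATTTCC occurred, ending between 69 and 83 bases upstream of the start. CXCL2 and CXCL3 had a further match, GGGCTTTCC, from base 53 to base 45. CCL20 had its match on the other strand, from base 79 to base 71. Over the 250 upstream bases, CXCL5 and CXCL6 were 85.3% identical in a global alignment and CXCL2 and CXCL3 73.3%, whereas CXCL8 was between 42.0% and 45.4% identical to the other 4. The matches at the NFKB2 starts are shown with a few flanking bases. The first match has the same letters as the further match of CXCL2 and CXCL3. The other, GGACTTTCC, differs from the chemokine letters.
NFKB2 (chr10:102394491-102394520, plus strand): ggccgagaagGGGCTTTCCcggccctgagc
NFKB2 (chr10:102395675-102395704, plus strand): ggtattttcgGGACTTTCCtaagctgctct
A match describes these letters and is not evidence of binding.

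Background was judged from gene families that pancreatic epithelium is not known to use, since no detection calls were used here. The 125 named genes of the hair keratin-associated, late cornified envelope, PRAME, vomeronasal and trace amine receptor families had a median of 3.26 on the uncompressed and 3.17 on the compressed array. Their 95th percentiles were 5.68 and 5.81, taken below as the reference level of each array. Of the 125, 7 were at least 1.5-fold higher on the compressed array and 11 at least 1.5-fold lower, beside 3.76% and 2.83% of all named genes. These families were chosen after the data were seen, and probe sets differ in how bright their background is, so the reference is a rough mark. Fold changes are given only for genes above it on both arrays, which were CXCL5, LIF and NFKB2 among the members.

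CXCL8, the neutrophil attractant also called IL-8, read 3.37 on the uncompressed array and 5.82 on the compressed array, a difference of 2.45. The uncompressed level was above 66 of the 125 reference genes and the compressed level above 119 of them. The uncompressed signal was thus in the range of genes not known to be used in this tissue, and the compressed signal lay just above the reference level. Of all 14884 named genes, 5 had a difference at least as large, CXCL8 included, and so did 3 of the 2976 genes in its band of mean level. With both values raised to the higher reference level of 5.81, the difference was 0.0084, so its size above background is not known and no fold is given.

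CCL20, the ligand of CCR6, read 4.57 on the uncompressed and 6.48 on the compressed array, a difference of 1.91. The uncompressed level was above 101 of the 125 reference genes and the compressed level above 123. The compressed level therefore stood above the reference and the uncompressed level below it. Raised to the reference level, the difference was 0.67, still past 1.5-fold, which is 0.585 on the log2 scale. In its level band 5 of 2977 genes had a difference at least as large.

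CXCL5, an ELR chemokine for neutrophils, read 6.04 on the uncompressed and 6.82 on the compressed array, a difference of 0.78 or 1.71-fold. Both levels were above the reference, by a small margin on the uncompressed array. Over the scaling alternatives its difference lay between 0.71 and 0.79. In its level band 64 of 2977 genes had a difference at least as large.

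CXCL2 read 5.92 on the uncompressed and 5.67 on the compressed array, a difference of -0.24. CXCL3 read 3.38 and 3.24, a difference of -0.14. Neither passed 1.5-fold in either direction. The CXCL2 level was above the reference on the uncompressed array and below it on the compressed array. CXCL3 was far below it on both, so a fall or a small rise of CXCL3 could not have been seen well. CXCL8 had a like uncompressed level, 3.37, and read 5.82 on the compressed array. CXCL2 and CXCL3 are close paralogs of each other and of CXCL1, and their probes may share targets. CXCL1 had no named probe set here and was not analysed here.

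**Figure D1:**
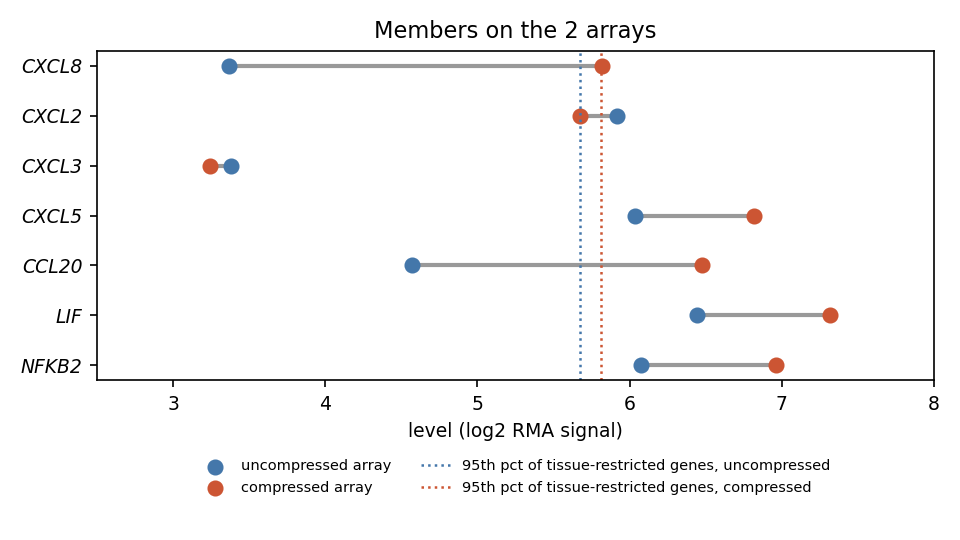
Log2 RMA signal of each member on the uncompressed (blue) and the compressed (orange) array, 1 array per condition, joined by a grey line; dotted lines are the 95th percentiles of 125 tissue-restricted genes on each array (5.68 and 5.81). CXCL8 and CCL20 start below the lines, CXCL5, LIF and NFKB2 lie above them on both arrays, and CXCL2 and CXCL3 are slightly lower on the compressed array.

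LIF read 6.44 on the uncompressed and 7.32 on the compressed array, a difference of 0.88 or 1.84-fold. Both levels were above the reference, and the alternatives moved the difference only between 0.83 and 0.89. In its level band 41 of 2977 genes had a difference at least as large.

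NFKB2 read 6.08 on the uncompressed and 6.97 on the compressed array, a difference of 0.89 or 1.85-fold. Both levels were above the reference, and over the alternatives the difference lay between 0.82 and 0.90. In its level band 48 of 2977 genes had a difference at least as large.

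Among all named genes 3.76% were at least 1.5-fold higher on the compressed array and 2.83% at least 1.5-fold lower. The members had been picked with earlier results of these arrays known, so their count of 5 of 7 is a description and nothing is read from its distance to these shares. At a size of 2-fold, 2 members were higher, CXCL8 and CCL20, beside 0.779% of all genes. Both were under the reference on the uncompressed array. Raised to the reference level, they differed by 0.0084 and 0.67, so neither reached 2-fold. The spread of the difference was wider among dim genes. Its interquartile range ran from -0.29 to 0.12 in the level band of CXCL3 and from -0.15 to 0.16 in the brightest band, which holds LIF. The arrays correlated at 0.978 (Pearson) across all 53617 probe sets.

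**Figure D2:**
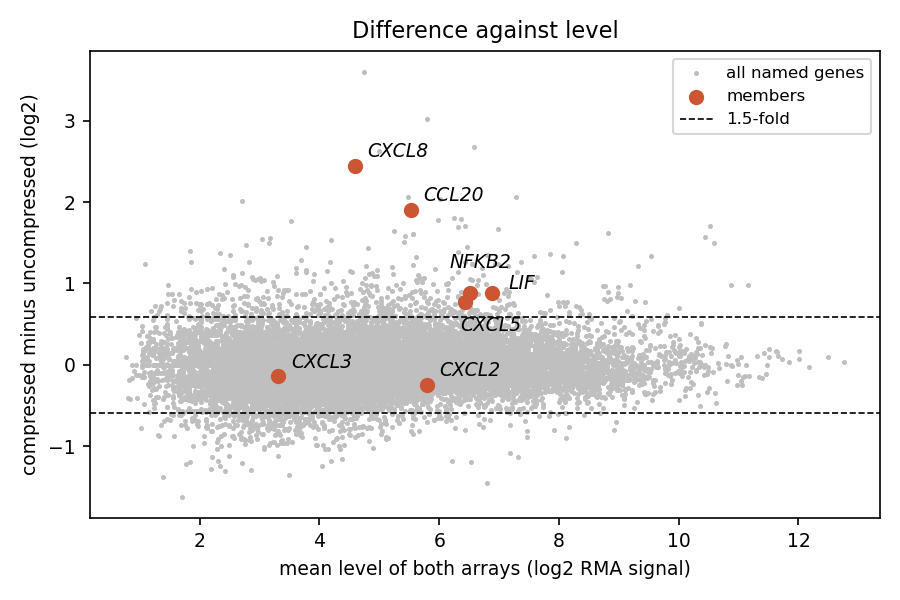
Difference compressed minus uncompressed (log2) against the mean level of both arrays (log2 RMA signal) for 14884 named genes (grey) and the 7 members (orange); dashed lines mark 1.5-fold in each direction. CXCL8 and CCL20 lie far above the cloud, CXCL5, LIF and NFKB2 just above the upper line, and CXCL2 and CXCL3 inside the cloud.

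CXCL8, CXCL5, CXCL3 and CXCL2 lie in a chemokine gene cluster on chromosome 4, and the genes beside them did not share one direction. From RASSF6 to EREG, RefSeq places 13 protein-coding genes, of which 12 had a named probe set. Of these, 3 were at least 1.5-fold higher (RASSF6, CXCL8 and CXCL5) and 1, CXCL6, was at least 1.5-fold lower. Over all named genes the shares were 3.76% and 2.83%. CXCL6, an ELR chemokine that acts through CXCR1 and CXCR2, read 3.30 on the uncompressed and 2.10 on the compressed array, a difference of -1.20. Both levels were under the reference, so CXCL6 is a contrast of dim values and no fold is given. RASSF6, the gene on the other side of CXCL8, read 3.98 and 4.64, also under the reference. EREG, the gene of the EGF receptor ligand epiregulin, read 8.26 and 8.82, a difference of 0.57 that did not reach 1.5-fold. The platelet chemokine gene PPBP was dim, at 2.08 and 1.96, and PF4 read 5.75 and 5.97. The signal of PF4V1, a near copy of PF4, was 4.26 on both arrays. CXCL5 and CXCL6, with the closest pair of promoters above, had differences of opposite sign. Because CXCL6 was dim on both arrays, nothing about their promoters is read from this.

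**Figure D3:**
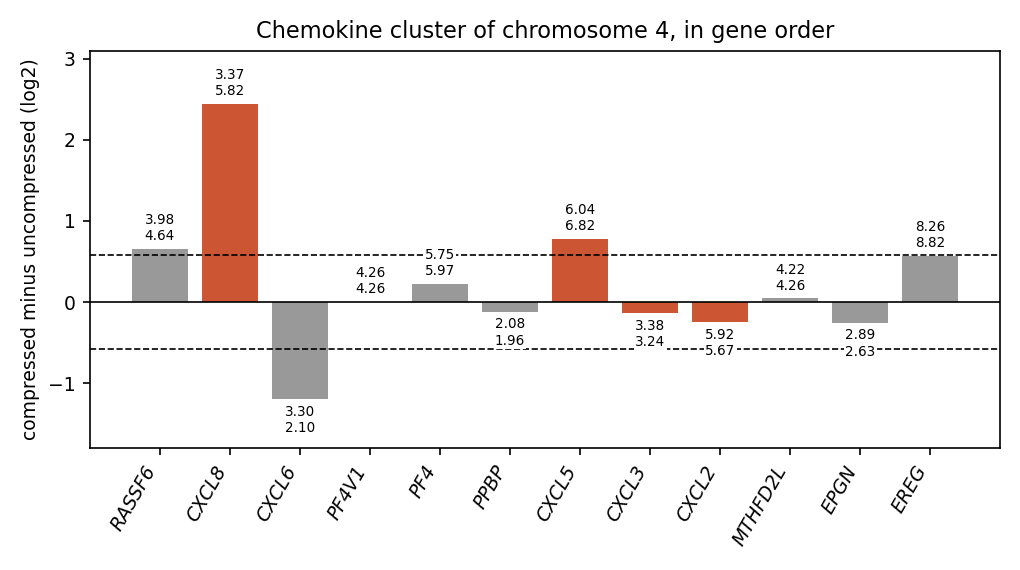
Difference compressed minus uncompressed (log2) of 12 protein-coding genes of the chromosome 4 chemokine cluster in RefSeq order, members in orange, with the uncompressed (upper) and compressed (lower) log2 level written at each bar; dashed lines mark 1.5-fold. CXCL8 and CXCL5 stand above the upper line and dim CXCL6 below the lower line, with CXCL3 and CXCL2 between the lines.

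Among other chemokine genes, 3 were past 1.5-fold besides CXCL6, all of them lower, beside 3.76% of all named genes higher and 2.83% lower. Of 13 listed CXC, CX3C and XC chemokine genes without the ELR motif, 0 were at least 1.5-fold higher and 1, CXCL17, was lower, at 4.44 and 3.85. The median difference of these 13 was -0.18, against -0.0090 over all named genes. Of the 20 named CC chemokine genes of the list other than CCL20, 0 were higher and 2 were lower, CCL7 (2.05 and 1.31) and CCL1 (3.02 and 2.41), with a median of 0.0080. CXCL17, CCL7 and CCL1 were all under the reference, so these are small signals near background. CXCL16, a transmembrane chemokine, was above it at 7.24 and 7.51. Of the 20 named chemokine receptor genes, 0 passed 1.5-fold in either direction, and their levels spanned 2.03 to 5.24 without compression and 1.84 to 4.90 with it. Among them CXCR1 read 3.17 on both arrays, CXCR2 3.52 and 3.20, and CCR6 3.65 and 3.22. All 20 were thus under the reference on both arrays.

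In the IL-6 family, LIF was 1 of 6 named cytokine genes and the 1 that passed 1.5-fold. IL11 read 5.14 and 5.41 and OSM 4.01 and 3.63, each under the reference on both arrays. The median of the 5 cytokines other than LIF was -0.32. On the receptor side, 2 of 13 named receptor and JAK-STAT genes passed 1.5-fold upward and 0 downward, beside 3.76% and 2.83% of all named genes. OSMR, the oncostatin M receptor subunit, read 6.86 and 7.62, which is 1.70-fold, and IL6R, the IL-6 receptor, read 4.74 and 5.44, under the reference. The median of the 13 was 0.17. LIFR read 4.54 and 4.45, under the reference on both arrays, and STAT3 read 7.53 and 7.83, a difference of 0.29. SOCS3, a feedback inhibitor that STAT3 induces, read 5.27 and 5.19, under the reference on both arrays. IL6ST had no named probe set here and was not analysed here.

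NFKB2 was 1 of 5 NF-kB subunit genes, all above the reference on both arrays, and the 1 that passed 1.5-fold. RELA read 7.52 and 7.76, a difference of 0.24. REL read 7.15 and 7.32, RELB 5.87 and 5.99, and NFKB1 6.65 and 6.76, with differences of 0.17, 0.12 and 0.11. All 5 differences were positive, as were those of 6590 of the 14884 named genes. Of 8 named inhibitor and feedback genes, 1 passed upward and 0 downward, beside 3.76% and 2.83% of all named genes. TNIP1, which restrains NF-kB together with TNFAIP3, read 6.17 and 6.86, which is 1.61-fold. The difference was 0.51 for TRAF3, which keeps the kinase of the non-canonical pathway low. It was 0.57 for the deubiquitinase gene CYLD and -0.31 for TNIP3, both under the reference. TNIP2 read 6.56 on both arrays and N4BP1 differed by 0.04. NFKBIA and TNFAIP3 had no named probe set here and were not analysed here.

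Of 19 named kinase and adaptor genes, 0 passed 1.5-fold, with a median of 0.20. RBCK1, a subunit of the linear ubiquitin ligase, differed by 0.57, BIRC2 by 0.46 and MAP3K14, the kinase of the non-canonical pathway, by 0.20. In the other direction 6 of the 19 were negative, among them TAB1 at -0.42, MALT1 at -0.37 and TRAF5 at -0.31. Of 11 named activating ligands and receptors, 0 passed, and TNF read 4.40 and 4.06, under the reference. Among 19 other NF-kB response genes 1 passed, CFLAR, an inhibitor of death receptor signalling, at 6.22 and 6.88 or 1.58-fold. ICAM1, an adhesion molecule gene, read 4.19 and 4.23 and PTGS2 2.97 and 2.91, each under the reference on both arrays. IER3, above it, read 10.12 and 10.62. The median difference of all 19 genes was 0.04. Of the 19, 6 were above the reference on both arrays, with differences from 0.05 (NINJ1) to 0.66 (CFLAR). Of 4 named genes of AU-rich mRNA decay and stability, which govern how long chemokine mRNAs last, 0 passed. TIA1, under the reference on both arrays, differed by 0.51. The others, above it on both, differed by 0.26 (MAPKAPK2), 0.08 (TIAL1) and -0.21 (KHSRP). Without the members, 4 of 138 named genes of the 12 lists were at least 1.5-fold higher (2.90%) and 4 lower (2.90%), beside 3.76% and 2.83% of all named genes. After loess correction or repeated quantile normalization that split was 5 higher and 2 lower, with IL1RAP (0.56 as deposited) gained and CXCL17 and CCL1 lost.

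**Figure D4:**
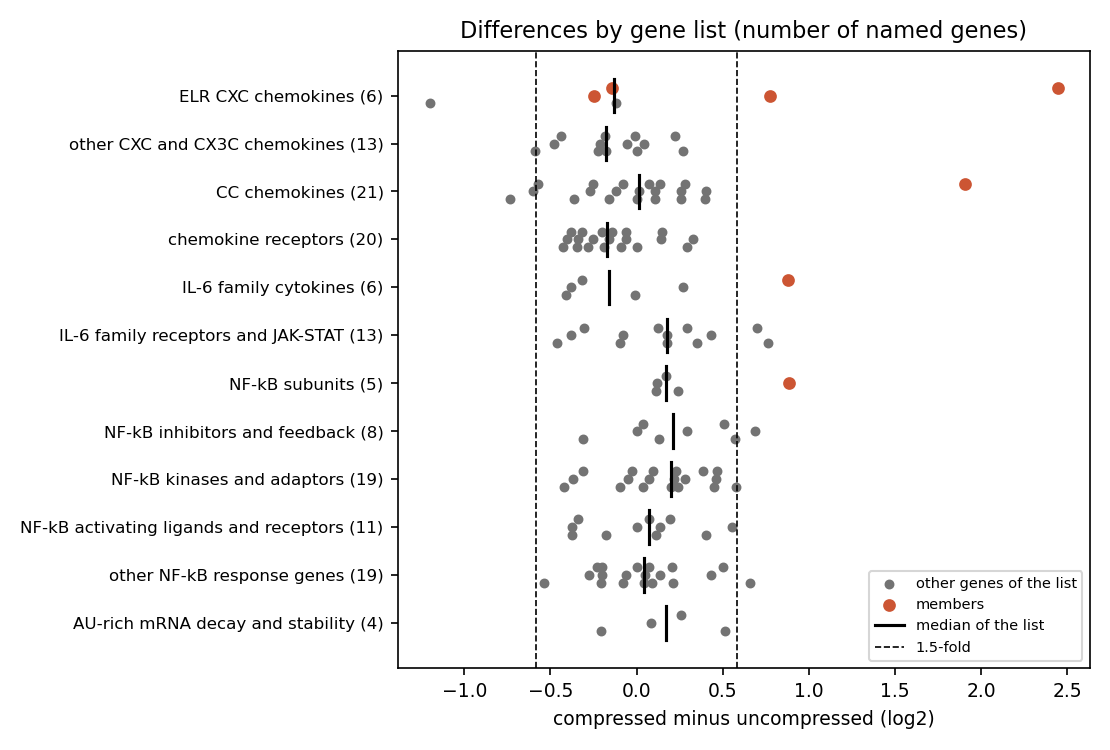
Difference compressed minus uncompressed (log2) of each named gene in 12 lists of the chemokine, IL-6 family and NF-kB systems; members are orange, other genes grey, black bars are list medians, dashed lines mark 1.5-fold, and points are spread vertically for sight only. The 5 members past the upper line stand apart from most genes of their own lists.

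By their values on the 2 arrays alone, the protein-coding genes nearest to CXCL8 among 11916 were RRAD (3.68 and 6.30), MMP1 (2.95 and 6.55) and HSD17B7 (3.42 and 4.96), at distances of 0.58, 0.84 and 0.86 on the log2 scale. Those nearest to CCL20 were KRTAP2-3 (4.45 and 6.51), USP17L12 (4.76 and 6.37) and HSPA6 (4.66 and 6.17), at 0.13, 0.22 and 0.32. KRTAP2-3 is also one of the reference genes, and on the compressed array it was itself above the reference level. With 2 values per gene, and with the brightness of a probe set counting toward the distance, this likeness is a description of those values alone.

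The label of the cells was checked against markers. Of 12 epithelial and duct markers 10 were named, and 6 of these were above the reference on both arrays, among them KRT18 (11.54 and 11.71), KRT19 (10.78 and 10.79), EPCAM (10.77 and 10.43) and CEACAM6 (10.88 and 10.87). KRT7 (3.36 and 3.78), CLDN4 (4.80 and 4.73) and TFF1 (4.93 and 5.08) were under it on both arrays and KRT80 (5.49 and 5.95) on the uncompressed one. Of 14 leukocyte markers 6 were named, and 4 of them, CD14, CSF1R, MPO and NKG7, were under the reference on both arrays. LYZ read 9.04 and 8.82 and CD68, a lysosomal protein gene, 8.45 and 9.26, or 1.75-fold. The summed signal of the 6 was 9.89 and 10.15 on the log2 scale, and its part in the higher chemokine values was not tested. Of 8 fibroblast markers 2 were named: DCN was dim (1.79 and 1.82), whereas LUM, the gene of the matrix proteoglycan lumican, read 9.75 and 9.39. The 4 named endothelial markers were under the reference on both arrays, from 2.77 to 5.22 uncompressed and from 2.68 to 5.15 compressed. In a signal from a whole culture, a change in the share of cells and a change in RNA per cell cannot be told apart.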

How the data were processed

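The data are 2 arrays, 1 per condition. Per the submitters' processing notes, the authors used the Transcriptome Analysis Console and RMA to make the deposited values, which are log2 signals. RMA subtracts a modelled background, equalises the arrays by quantile normalization and summarises probes, so it removes shifts shared by all genes and compresses dim differences. No version, setting or genome build is given in the sources used here. Groups came from the treatment characteristic. The platform annotation named 16098 of 53617 probe sets with 1 gene each. For genes with several probe sets the brightest by mean of the 2 arrays was taken, which gave 14884 genes, updated to current symbols through RefSeq's gene table (GRCh38.p14). No level filter was applied. Genes were counted at 1.5-fold.

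The members and the 12 gene lists were chosen with earlier results of these data known. Named are all members, up to 4 genes of each list in each direction past 1.5-fold, a fixed set of subunits, receptors and inhibitors, and for CXCL8 and CCL20 the 3 nearest protein-coding genes. RASSF6, EREG, PF4, PF4V1, PPBP, CXCL16, OSM, IL11, CYLD, TRAF3 and the kinase, response and mRNA decay genes below 1.5-fold, the receptors CXCR1, CXCR2 and CCR6 and the chosen markers were picked after their values were seen. Levels near background were read against 125 tissue-restricted genes, because the olfactory receptor families set out for this held 1 named gene. Level bands are 5 equal groups by mean level. Alternatives were the mean of all probe sets, loess correction (span 0.3), median centring, repeated quantile normalization, sizes of 2-fold and of 0.32 on the log2 scale, and level filters. Computations used pandas 2.3.3 and NumPy 2.4.6 under Python 3.11.15, with statsmodels 0.14.6 for loess, Biopython 1.88 for alignment and matplotlib 3.10.9 for figures.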

Additional observations from a re-analysis of the deposited data

How the results depend on the processing

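The 5 higher members stayed past 1.5-fold, and CXCL2 and CXCL3 within it, with loess correction and repeated quantile normalization. The mean of all probe sets could not change any member, because each had 1 named probe set. Median centring took the same median difference of -0.0090 from every gene, too small to move a member past or below 1.5-fold. At a size of 2-fold the counts were 2 members and 0 genes of the related lists, beside 0.779% of all genes. At the smaller size of 0.32 on the log2 scale they were 5 members and 21 related genes, beside 12.7%. At or above the 75th percentile of mean level 3 members were left and counted 3, beside 3.68% of the 3721 genes left; CXCL5 and NFKB2 passed that filter through the array where they were higher, so the count supports nothing. With values raised to the higher reference level, an alternative chosen after the data were seen, 4 members passed and the share of all genes was 1.08%; CXCL8 then differed by 0.0084 and CCL20 by 0.67. The alternatives built on olfactory receptor genes were not run, because 1 such gene was named. No paired analysis was possible because each group is 1 array. The files hold no detection calls, so which dim values lie above background is unknown.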
